A study of Mus musculus with 36 samples.

Results

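The amyloid precursor protein gene App, the prion protein gene Prnp, the APP-like genes Aplp1 and Aplp2 and the Prnp neighbour Prnd were followed through every transcript row that the deposited mRNA table gives for them. The 5 genes held 9 of 48717 rows, with 1 row each for App, Prnp and Aplp1, 2 rows for Aplp2 and 4 rows for Prnd. Values are FPKM, fragments per transcript length and sequencing depth. Long RNA of brain from C57BL/6 mice was sequenced in 4 groups of 3 libraries. They were wild type at 6 months, APP/PS1 at 6 months, wild type at 9 months and APP/PS1 at 9 months. The design text describes the APP/PS1 mice as expressing APP695swe, an APP form with the Swedish mutations, and also PS1-dE9. It asks how the whole transcriptome of such mice differs from that of wild-type controls. The labels give neither the promoter nor the vector of the transgenes, and do not state whether the libraries within a group are from different animals. P-values therefore measure the spread between these libraries, which may be technical.

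APP is a membrane protein of neurons that is cut by alpha-secretase at the surface or by beta- and gamma-secretase in endosomes, and the second route releases amyloid beta. APLP1 and APLP2 are its paralogs, share its adaptor proteins and secretases and lack the amyloid beta sequence. The prion protein is a copper-binding protein anchored to the outer face of the cell membrane, abundant in neurons, and Prnd, the gene of the related protein doppel, lies downstream of Prnp and is best known from testis. In the APP/PS1 line in common use, the transgenes were placed in a vector derived from the mouse prion protein gene, so that promoter and non-coding sequence of Prnp go with them.

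In these data App and Prnp rose in APP/PS1 at both ages, by 2.25-fold and 2.24-fold for App and by 2.88-fold and 2.84-fold for Prnp, while no row of Aplp1 or Aplp2 was called and Prnd lay at or near 0 throughout. Each rise sat in the only row the table has for its gene. The 250 bases upstream of the annotated start of Prnp, App and Prnd are shown because the first pair rose together and Prnd is the nearest prion family gene to Prnp. They are given 5′ to 3′ on the gene's strand, from RefSeq with the build GRCm38.p6, and capitals mark GC boxes (GGGCGG, or CCGCCC on the other strand). The windows lie at chr2:131909678-131909927 (plus strand) for Prnp, chr16:85173708-85173957 (minus strand) for App and chr2:131950611-131950860 (plus strand) for the upstream one of the 2 Prnd starts in the promoter table used.
Prnp: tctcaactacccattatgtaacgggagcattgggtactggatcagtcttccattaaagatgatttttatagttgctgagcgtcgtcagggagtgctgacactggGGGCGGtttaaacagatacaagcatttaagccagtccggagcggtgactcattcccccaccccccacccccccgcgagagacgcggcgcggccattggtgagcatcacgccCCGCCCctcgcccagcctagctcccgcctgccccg
App: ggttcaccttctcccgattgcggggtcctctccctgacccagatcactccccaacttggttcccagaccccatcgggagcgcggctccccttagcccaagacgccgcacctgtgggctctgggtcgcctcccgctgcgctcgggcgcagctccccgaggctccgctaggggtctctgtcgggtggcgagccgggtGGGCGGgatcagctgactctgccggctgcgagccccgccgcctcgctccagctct
Prnd: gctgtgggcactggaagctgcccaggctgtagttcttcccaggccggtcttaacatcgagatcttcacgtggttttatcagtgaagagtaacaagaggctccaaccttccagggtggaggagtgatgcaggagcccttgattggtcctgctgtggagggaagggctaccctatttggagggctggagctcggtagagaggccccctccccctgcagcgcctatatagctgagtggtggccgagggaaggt

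Prnp held 2 GC boxes, 2 CCAAT matches and 1 TATAAA match, counting both strands, and no matches of these motifs overlapped. App held 1 GC box and neither of the other motifs. The window of Aplp1 (chr7:30445583-30445832, minus strand) also held 1 GC box alone, while that of Aplp2 (chr9:31211849-31212098, minus strand) held 3 GC boxes and 2 CCAAT matches. The Prnd window shown held 1 CCAAT match and no GC box, and that of the other Prnd start (chr2:131950787-131951036, plus strand) held none of the motifs. Over 32851 windows of the same length, 32.7% held GGGCGG, 33.8% CCAAT and 12.4% TATAAA. CpG dinucleotides numbered 23 in App, 22 in Aplp2, 20 in Aplp1 and 17 in Prnp, against a median of 6 over all windows and 6 and 8 in the Prnd windows. These are matches in the mouse reference and say nothing about which copy of a gene was transcribed.

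The tissue label of every library reads brain, while the protocol text speaks of retinas. The summed level of 5 neuron markers ran from 1299 to 1429 FPKM. Of 10 photoreceptor markers, 8 were under 0.5 FPKM in every library. A list of 4 inner retina markers summed to 10.5 to 14.4 FPKM. Prox1, which is also known from the dentate gyrus of the brain, had the highest median of that list, at 6.99 FPKM. Choroid plexus markers summed to 4.53 FPKM in wild-type library 1 and 10.7 in library 3 of 6 months. In the other 10 libraries they summed to between 72.6 and 341, and the cause of this spread was not tested. With library 1 or library 3 left out, the App difference between genotypes at 6 months was 1.17 or 1.16 and that of Prnp 1.53 in either case, on a log2 scale. Summed FPKM of all mRNA rows ran from 292540 to 301778. As the table holds no counts, the depth behind each value is unknown.

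The App row, ENSMUST00000005406, read 435.71, 440.70 and 433.27 FPKM with wild type at 6 months, while APP/PS1 libraries of that age read 969.87, 971.13 and 1006.8. At 9 months wild type gave 452.99, 443.67 and 447.84, whereas APP/PS1 gave 1029.2, 973.21 and 1004.2. All 6 APP/PS1 libraries were above all 6 wild-type libraries with a wide gap between the genotypes. Means were 436.6 ± 3.79 and 982.6 ± 20.98 (SD, n = 3) at 6 months, and 448.2 ± 4.667 and 1002 ± 28.03 at 9 months. The difference was 1.17 at 6 months (95% interval 1.10 to 1.24, limma adjusted p = 5.75e-08) and 1.16 at 9 months (1.10 to 1.23, limma adjusted p = 6.21e-08), on the log2(FPKM + 0.25) scale used for every log2 value here.

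The Prnp row, ENSMUST00000091288, read 253.64, 248.82 and 255.87 FPKM in wild-type libraries of 6 months, against 717.60, 726.72 and 739.31 in their APP/PS1 counterparts. At 9 months wild type gave 265.37, 269.02 and 253.13, whereas APP/PS1 gave 759.58, 744.20 and 732.08. As for App, no APP/PS1 library came near the wild-type range. Group means were 252.8 ± 3.604 and 727.9 ± 10.9 at 6 months and 262.5 ± 8.323 and 745.3 ± 13.78 at 9 months. The log2 difference was 1.52 (95% interval 1.46 to 1.59, limma adjusted p = 1.3e-08) and 1.505 (1.44 to 1.57, adjusted p = 1.48e-08). In both comparisons the Prnp row had the smallest p of all 22322 transcript rows tested and the App row the next smallest.

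**Figure D1:**
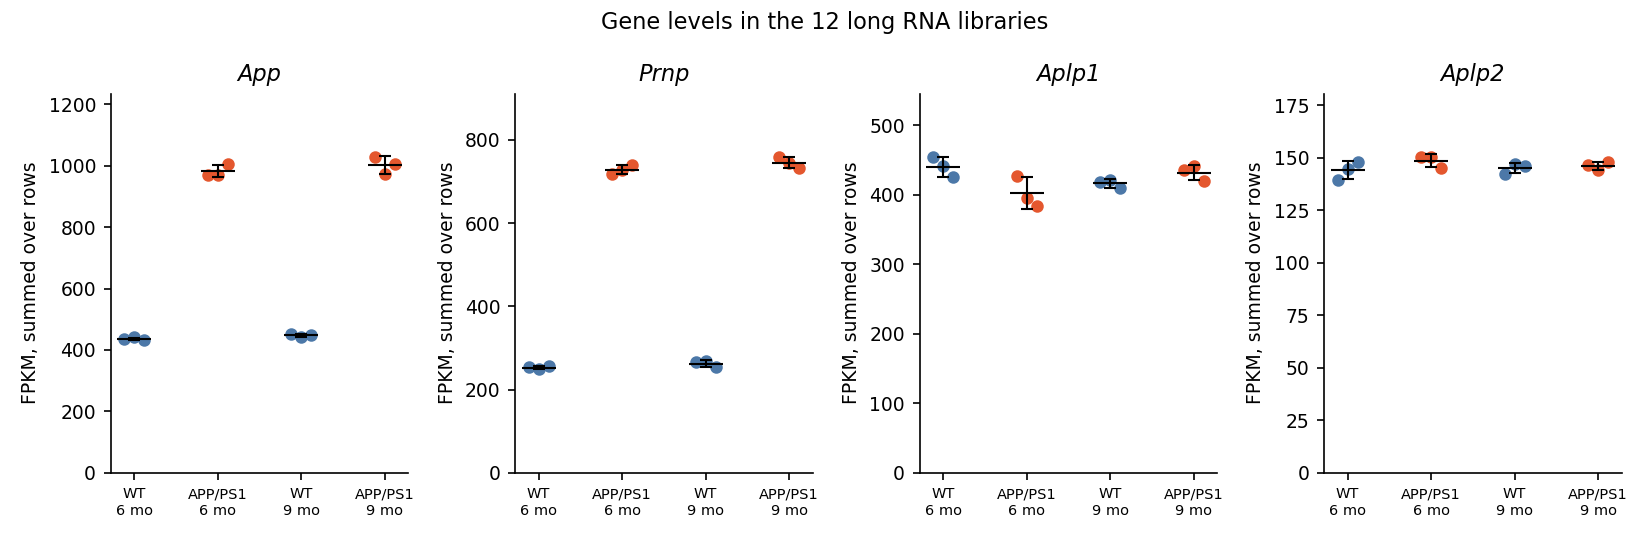
FPKM of App, Prnp, Aplp1 and Aplp2 (vertical axes, from 0, each with its own scale, rows of a gene summed) in the 3 libraries of each group. Dots are libraries, the long bar is the mean and the whiskers the SD. App and Prnp separate by genotype at both ages, and the group means of Aplp1 and of Aplp2 lie within 10% of each other.

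At 6 months 10 of 22322 transcript rows were called (0.0448%), 5 higher and 5 lower, and at 9 months 14 (0.0627%), 11 higher and 3 lower. Unadjusted, limma gave p under 0.05 to 1932 rows at 6 months and 1568 at 9 months. In a simulated 9-month comparison over 22322 rows, 49.3% of rows changed 2-fold were called, so uncalled rows can differ between the genotypes. That rate is for rows of all kinds and is not specific to Aplp1 and Aplp2. The confidence intervals of the Aplp1 and Aplp2 rows for genotype at 6 and 9 months lay between -0.228 and 0.22 log2. These intervals stop well short of a 2-fold change in either direction. Of the 9 rows of the 5 genes, 5 passed the filter of a mean of 0.5 FPKM, and 2 of these, App and Prnp, were called at both ages. The genotypes did not overlap in 3 of the 5 tested rows at 6 months (App, Prnp and 1 Aplp2 row) and in 2 at 9 months, while this held for 13.9% of all rows at 6 months and 13.9% at 9 months, so lack of overlap alone sets no row apart. Only 4 rows were called at both ages. They were App, Prnp, the row of Cst7, which encodes the protease inhibitor cystatin F (log2 2.71 and 3.59), and 1 row of the autophagy gene Atg7 (log2 -2.85 and -3.63). With rows summed per gene, 6 of 13546 genes were called at 6 months (0.0443%) and 13 at 9 months (0.096%), and App, Prnp and Cst7 were called at both.

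**Figure D2:**
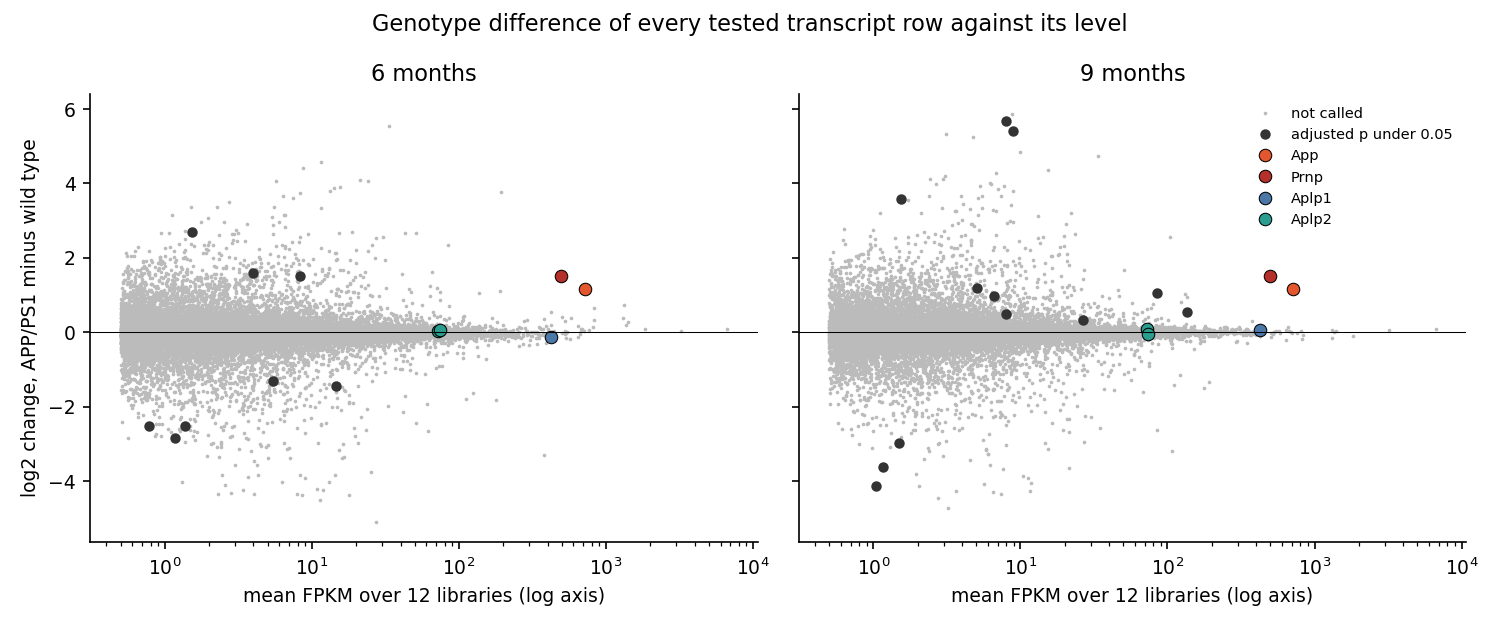
Log2 difference between APP/PS1 and wild type (vertical axis) against mean FPKM over the 12 libraries (horizontal log axis) for all 22322 tested rows at 6 and 9 months. Grey points were not called, black points had a limma adjusted p under 0.05, and the coloured points are the rows of App, Prnp, Aplp1 and Aplp2. App and Prnp stand above the narrow band that highly expressed rows form, and the other 3 coloured rows lie within it.

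Which of the App isoforms carried the rise cannot be read from this table. RefSeq lists 5 curated transcripts of mouse App and 2 of Prnp, while the table has 1 row for each, so 100% of each gene's difference falls in that row by construction. The FPKM also do not separate reads of the mouse genes from reads of sequence carried by a transgene, and the part of either was not tested.

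Ranked by FPKM among the transcripts of a library, App moved from places 28 to 31 in wild type to places 8 to 11 in APP/PS1. Prnp moved from places 82 to 89 to places 12 to 16. The mean gain of App was 546.0 FPKM at 6 months and 554.0 at 9 months, and that of Prnp 475.1 and 482.8. In single APP/PS1 libraries, set against the wild-type mean of their age, the App gain was 533.3, 534.6 and 570.3 FPKM at 6 months and 581.0, 525.0 and 556.1 at 9 months. The Prnp gains in the same libraries were 464.8, 473.9 and 486.5, then 497.1, 481.7 and 469.6. The ratio of the App gain to the Prnp gain was 1.149 ± 0.02214 (SD, n = 3) at 6 months and 1.148 ± 0.05054 at 9 months, with single libraries from 1.09 to 1.18. The ratio of the App level to the Prnp level was lower in APP/PS1, at 1.35 against 1.73 in wild type at 6 months and 1.34 against 1.71 at 9 months.

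Age left both genes within a narrow range. Between 9 and 6 months App differed by 0.04 log2 in wild type (95% interval -0.03 to 0.10, limma adjusted p = 0.796) and by 0.03 in APP/PS1 (-0.04 to 0.09, adjusted p = 0.821). The same differences for Prnp were 0.05 (-0.01 to 0.12, adjusted p = 0.719) and 0.03 (-0.03 to 0.10, adjusted p = 0.785). The genotype difference at 9 months minus that at 6 months was -0.01 for App (95% interval -0.10 to 0.08, limma adjusted p = 0.971) and -0.02 for Prnp (-0.12 to 0.08, adjusted p = 0.929). None of the 5 tested rows was called for age in wild type, where 3 of all rows were (0.0134%), for age in APP/PS1, where 12 were (0.0538%), or for the difference between the ages, where 4 were (0.0179%). Unadjusted, limma gave p under 0.05 to 1691, 2054 and 1818 of the 22322 rows in these comparisons. The ages did not overlap in 3 of the 5 tested rows in wild type, against 14.7% of all rows, and in none in APP/PS1, against 14.4%. App was among them in wild type, with its 9-month libraries all above the 6-month ones.

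Aplp1, the paralog expressed mainly in neurons, had a level close to that of App in wild type. Its row, ENSMUST00000006828, read 454.86, 440.83 and 426.23 FPKM in wild-type libraries of 6 months, against 427.73, 395.73 and 384.05 with APP/PS1. At 9 months wild type gave 418.62, 422.01 and 409.12, whereas APP/PS1 gave 435.73, 441.15 and 419.53. The genotypes overlapped at both ages, through 1 APP/PS1 library at 6 months that lay just above the lowest wild-type one. The log2 difference was -0.13 at 6 months (95% interval -0.23 to -0.04, limma adjusted p = 0.458) and 0.05 at 9 months (-0.04 to 0.15, adjusted p = 0.858). The difference between these values, 0.18 (95% interval 0.05 to 0.32), had a limma adjusted p of 0.522. Aplp1 in wild type was lower at 9 than at 6 months without overlap (log2 -0.08, 95% interval -0.18 to 0.02, limma adjusted p = 0.702). In APP/PS1 the age difference had the other sign (0.10, interval 0.01 to 0.20, adjusted p = 0.509), with overlapping groups. None of these differences of Aplp1 passed the test over all rows.

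Aplp2, the paralog found in most tissues, was carried by a pair of rows of like level. The row ENSMUST00000072634 averaged 73.24 ± 4.11 FPKM with wild type and 74.66 ± 5.924 with APP/PS1 at 6 months, then 68.58 ± 2.881 and 72.36 ± 2.526 at 9 months. Its log2 difference between genotypes was 0.03 (95% interval -0.12 to 0.17, limma adjusted p = 0.945) and 0.08 (-0.07 to 0.22, adjusted p = 0.860). The row ENSMUST00000079758 read 70.861, 69.339 and 72.049 FPKM in wild-type libraries of 6 months, against 72.383, 72.251 and 77.116 with APP/PS1, a difference without overlap of 0.06 (95% interval -0.03 to 0.15, limma adjusted p = 0.717). At 9 months its wild-type libraries stood at 74.426, 75.070 and 79.811 and its APP/PS1 libraries at 76.586, 71.729 and 72.814, with a log2 difference of -0.05 (-0.14 to 0.04, adjusted p = 0.843). That row was higher at 9 than at 6 months in wild type, again without overlap and not called (0.11, interval 0.02 to 0.20, adjusted p = 0.575).

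Summed over its rows, Aplp2 was steadier than either row. The sum averaged 144.0 ± 4.318, 148.6 ± 3.153, 145.0 ± 2.325 and 146.1 ± 1.965 FPKM in wild type and APP/PS1 of 6 months and wild type and APP/PS1 of 9 months. Its coefficient of variation over the 12 libraries was 2.17%, against 5.82% and 4.05% for the rows. The rows had a Pearson r of -0.66 over these libraries, which is a description only. How reads were divided between the rows is not known, and the cause of this r was not tested. At gene level the log2 difference was 0.05 at 6 months (limma adjusted p = 0.651) and 0.01 at 9 months (adjusted p = 0.964). ENSMUST00000072634 made up 50.8 ± 1.51% (wild type) and 50.2 ± 2.96% (APP/PS1) of the Aplp2 FPKM at 6 months, then 47.3 ± 1.83% and 49.5 ± 1.6% at 9 months. The genotype difference in this share over both ages was 0.81 percentage points (two-sided exact permutation test within age, p = 0.54, where the 400 arrangements allow 0.005 at the smallest).

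**Figure D3:**
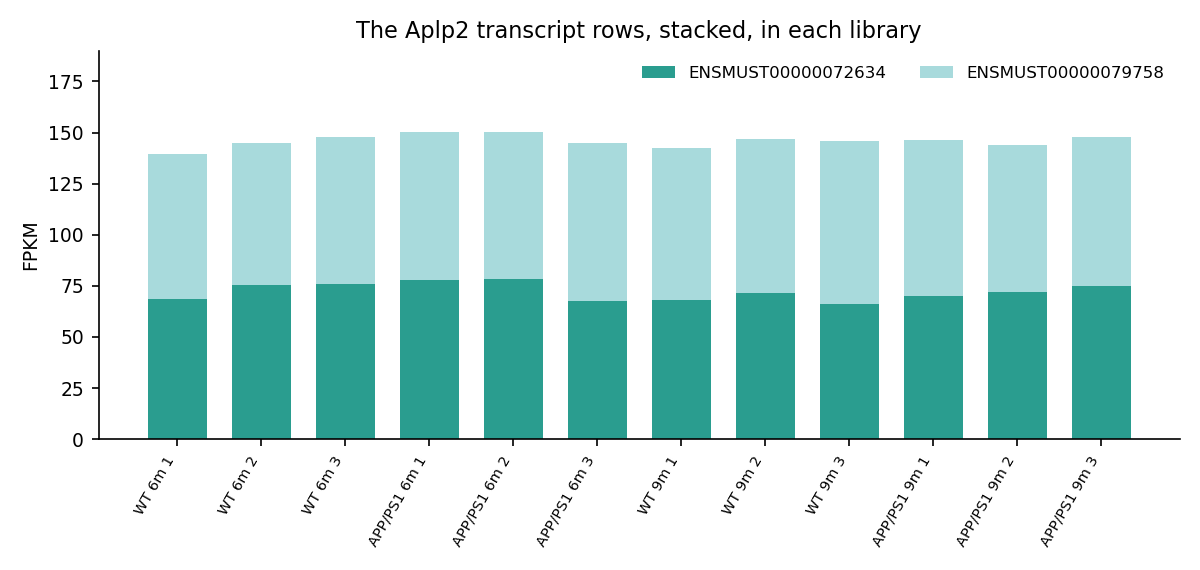
FPKM of the pair of Aplp2 rows, stacked, in each of the 12 long RNA libraries (vertical axis from 0, WT is wild type, 6m and 9m are months of age). The total stays between 139 and 150 FPKM, while the dark row ranges from 66.1 to 78.2 and the pale row from 69.3 to 79.8.

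With Aplp1 and Aplp2 near their wild-type levels, the make-up of the APP family shifted. App supplied 42.8 ± 0.389% of the summed FPKM of App, Aplp1 and Aplp2 in wild type and 64.1 ± 1.45% in APP/PS1 at 6 months, then 44.4 ± 0.488% and 63.4 ± 0.826% at 9 months. The share of Aplp1 was 43.1% in wild type and 26.2% in APP/PS1 at 6 months, and that of Aplp2 14.1% and 9.69%. The family sum was 1021 ± 12.1 FPKM in wild type and 1534 ± 15.5 in APP/PS1 at 6 months, and 1010 ± 6.05 and 1580 ± 27.6 at 9 months. In wild type App and Aplp1 stood at the top, then Prnp, then Aplp2. App and Aplp1 overlapped at 6 months, with a ratio of App to Aplp1 of 0.991 ± 0.0302, and App lay above Aplp1 without overlap at 9 months, with a ratio of 1.08 ± 0.0223. In APP/PS1 the order was App, Prnp, Aplp1 and Aplp2, with no overlap between neighbours at either age.

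**Figure D4:**
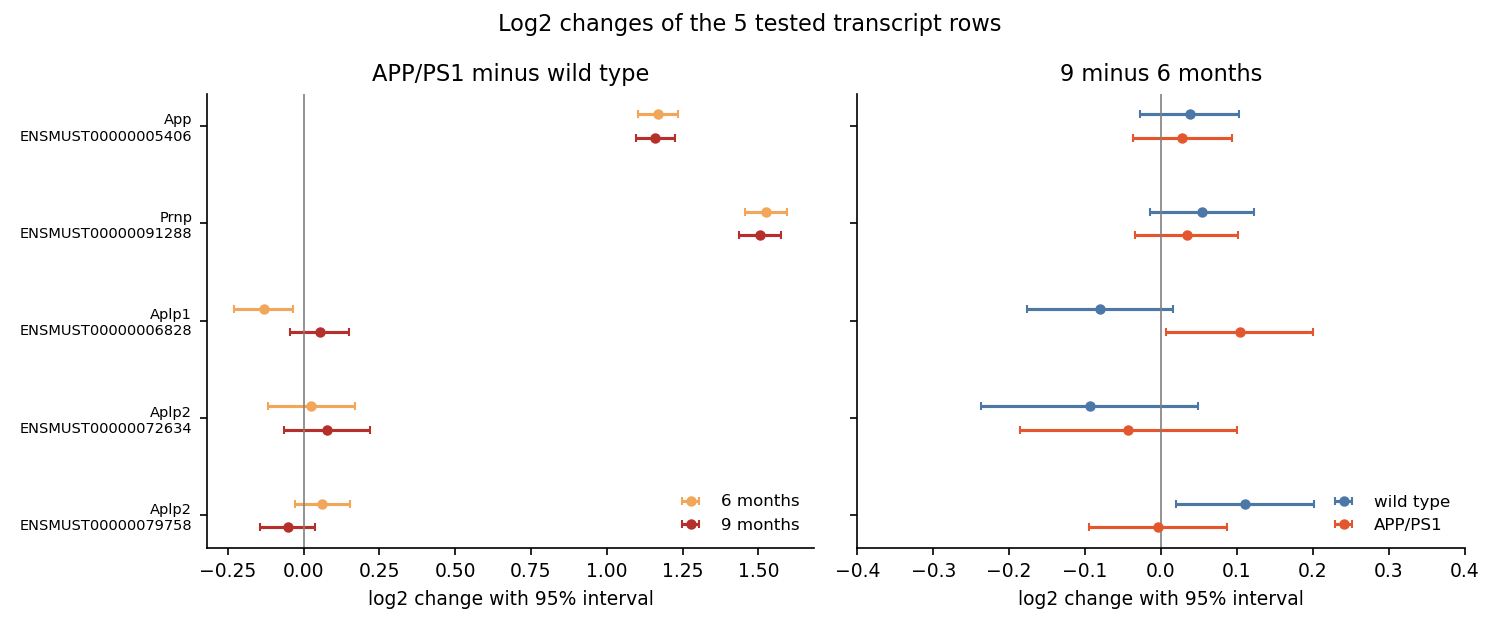
Log2 change with its 95% interval for the 5 tested rows, between genotypes at each age (left) and between ages in each genotype (right, a narrower scale). The intervals of App and Prnp lie above 1 in the left panel, and every other interval in either panel lies between -0.25 and 0.25.

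Prnd stayed at the bottom of the table. Of its 4 rows, 2 were at 0 in every library, and 3 of all 48 values were above 0, in 2 libraries, with 0.0422 FPKM the highest. None passed the filter, so Prnd was not tested. The read-through gene Gm28045, which RefSeq calls Prn and which spans Prnp and Prnd, was above 0 in 10 of 12 libraries and reached 0.0887 FPKM. Its range was 0 to 0.0701 in wild type and 0.0225 to 0.0345 in APP/PS1 at 6 months, then 0 to 0.0887 and 0.011 to 0.0215 at 9 months. The testis markers Prm1, Prm2 and Tnp1, genes of the tissue where Prnd is known to be high, were at 0 in every library.

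Genes that act with APP and the prion protein were measured beside App and Prnp. None of the 20 tested APP adaptors and cytoplasmic partners, 24 sorting and surface partners, 14 secretases and processing genes or 15 prion protein partners was called at either age by limma. At 6 months 5, 4, 1 and 1 of them had an unadjusted p under 0.05, and at 9 months 3, 2, 1 and 1. Over all 13546 genes this held for 1593 (11.8%) at 6 months and 1319 (9.74%) at 9 months. The medians of the log2 difference were 0.00, -0.01, -0.04 and -0.01 at 6 months, beside -0.01 over all 13546 genes, and -0.02, 0.04, 0.03 and 0.04 at 9 months, beside 0.01. Among the adaptors 10 values were positive and 10 negative at 6 months, and 9 and 11 at 9 months. Sorting and surface partners were positive in 11 and negative in 13 cases at 6 months, and in 18 and 6 at 9 months. Secretases and processing genes split 5 to 9 and then 9 to 5, and prion protein partners 6 to 9 and then 11 to 4. Over all 13546 genes 46.0% of values were positive at 6 months and 53.4% at 9 months. Lrp1 and Gpc1 are counted both among the sorting and surface partners and among the prion protein partners.

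The beta-secretase gene Bace1 varied widely, at 18.8 ± 4.32 FPKM in wild type and 15.8 ± 6.53 in APP/PS1 at 6 months (log2 -0.29, limma adjusted p = 0.754) and at 18.6 ± 4.81 and 17.8 ± 4.57 at 9 months (-0.06, adjusted p = 0.978). Adam10, the main alpha-secretase of neurons, lay at 25.6 ± 1.1 and 26.9 ± 1.45 at 6 months (0.07, adjusted p = 0.605) and at 26.6 ± 0.947 and 26.0 ± 0.731 at 9 months (-0.03, adjusted p = 0.881). Ncstn, the gamma-secretase subunit nicastrin, stood at 16.7 ± 0.69 and 18.2 ± 0.606 FPKM at 6 months (0.13, adjusted p = 0.464) and differed by -0.02 at 9 months (adjusted p = 0.956). Sorl1, a receptor that returns APP from endosomes, differed by 0.07 and 0.04 (adjusted p = 0.562 and 0.784). Sprn, the gene of the prion-like protein shadoo, differed by -0.02 and 0.04 (adjusted p = 0.954 and 0.903). The widest values in the partner lists belonged to Apbb1ip at 6 months (0.41, adjusted p = 0.384) and to the receptor gene Gpr3 at 9 months (-0.51, adjusted p = 0.340).

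The neighbours of the 5 genes in the genome were measured in the same way. They are the 3 nearest genes on each side that have an FPKM row. Of 25 such genes 18 were tested and none was called by limma, with 1 at an unadjusted p under 0.05 at 6 months and 4 at 9 months, beside the 11.8% and 9.74% of all genes given above. Their median log2 difference was -0.03 at 6 months and -0.04 at 9 months. Next to App, Gabpa differed by 0.05 and -0.06 (limma adjusted p = 0.777 and 0.807) and Cyyr1 by -0.06 and -0.46 (adjusted p = 0.916 and 0.304). Near Prnp, Adra1d differed by 0.09 and -0.05 (adjusted p = 0.662 and 0.890). The lowest value at either age belonged to Tmem230, which lies near Prnd. It differed by -0.55 at 6 months and -0.49 at 9 months (limma adjusted p = 0.45 and 0.592). The highest value belonged to Tyrobp, a microglial adaptor gene that lies close to Aplp1. Tyrobp was at 10.7 ± 2.47 and 16.1 ± 1.27 FPKM at 6 months (0.61, limma adjusted p = 0.188) and at 11.6 ± 1.33 and 22.6 ± 3.04 at 9 months (0.95, adjusted p = 0.0606). Microglia markers summed to 88 to 102 FPKM in wild type and 101 to 110 in APP/PS1 at 6 months and to 86 to 95 and 105 to 127 at 9 months, and their part in the Tyrobp values was not tested. In bulk tissue, a change in the number of cells and a change in RNA per cell cannot be told apart.

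**Figure D5:**
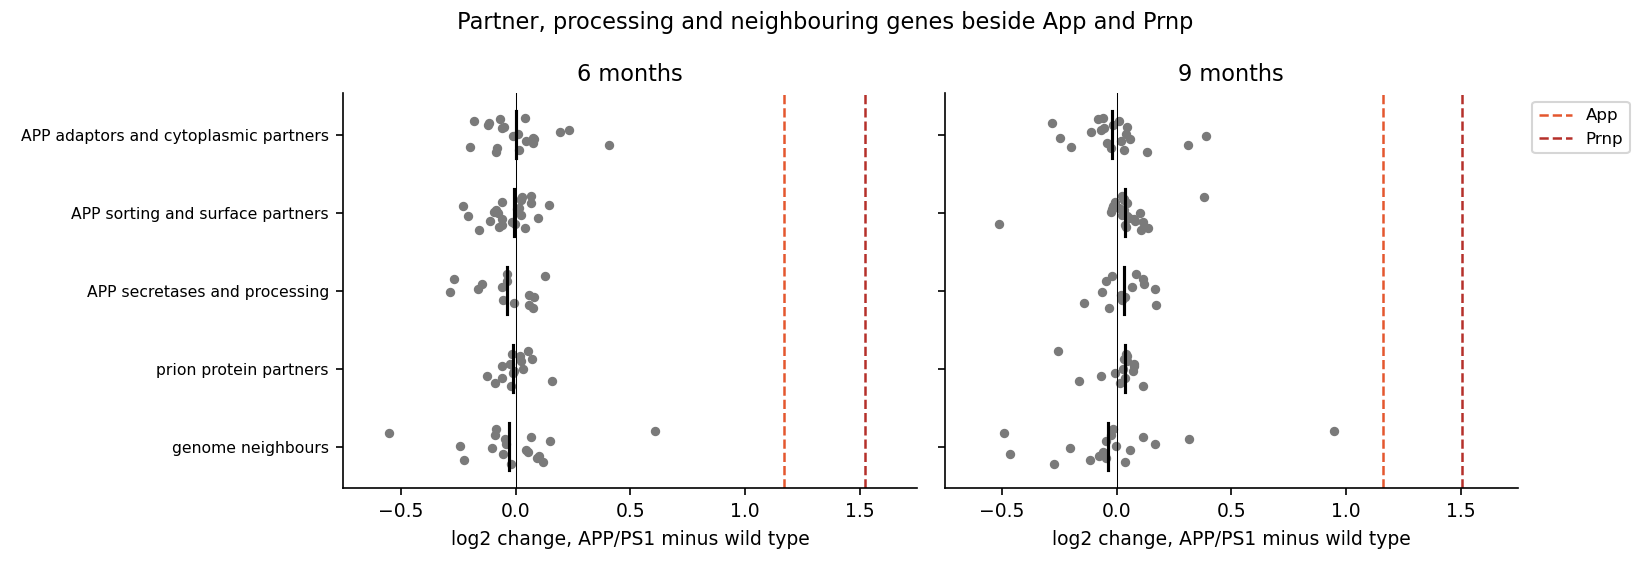
Log2 difference between APP/PS1 and wild type (horizontal axis) for each tested gene (dots) of the 4 partner lists and the genome neighbours at 6 and 9 months. Short black bars are list medians, and dashed lines mark App and Prnp. All dots lie to the left of both dashed lines, the nearest being Tyrobp at 0.95 at 9 months.

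Over the 12 libraries, the gene whose level followed App most closely was Prnp, with a Pearson r of log2 values of 0.999 among 9064 genes of at least 5 FPKM. The next were Gfap at 0.900, Ctsz at 0.899 and Rad21 at 0.896, and the same 3 genes followed Prnp, with r from 0.898 to 0.904. Gfap, the intermediate filament gene of astrocytes, averaged 59.7 ± 3.12 and 95.9 ± 12 FPKM at 6 months and 63.2 ± 11.6 and 131 ± 18.3 at 9 months. The 5 astrocyte markers include Gfap itself. They summed to 736 to 755 FPKM in wild type and 821 to 867 in APP/PS1 at 6 months, and to 729 to 830 and 818 to 889 at 9 months. Aplp1 was followed most closely by Scamp5 (0.952) and Gfra4 (0.949), and Aplp2 by Slc38a1 (0.854) and Hp1bp3 (0.844). App had r of -0.31 with Aplp1 and 0.45 with Aplp2. These correlations describe libraries that fall into genotype groups and share a normalization, and genes of like profile are named only for that.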

How the data were processed

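Long RNA of 12 brain libraries was examined. Per the labels' protocols, 1 µg of total RNA went into each Illumina TruSeq library. The authors deposited FPKM per transcript without counts. The submitters' processing notes name Bowtie 0.12.2 and the build mm8 without a role. How FPKM were computed and from which annotation is not given in the sources used here. CircRNA, lncRNA and miRNA tables were not used here, and another gene of the model is not reported here.

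Rows with a mean of at least 0.5 FPKM (22322 transcripts, or 13546 genes after summing by symbol) were tested as log2(FPKM + 0.25) with limma 3.58.1 (R 4.3.3, 4 group means, eBayes with trend), two-sided, and called at a Benjamini-Hochberg adjusted p under 0.05 over all rows. A log2 change on this scale understates the change of low genes. On simulated data, 49.3% of 2-fold changed rows among 22322 transcripts and 92.5% among 13546 genes were called at 9 months, and 6.6% and 6.32% of calls were unchanged rows. Shares were tested by exact permutation within age.

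The members, gene lists and tests were chosen with earlier results of these data known. Named were all rows of the 5 genes, list genes called (none), the 4 genes most like each member, and, chosen after their values were seen, list extremes and well-known partners. Of 22154 gene IDs, 98.1% matched a reference names table. Neighbours come from a RefSeq table of GRCm38.p6, used for gene order only. Alternatives were other pseudocounts, filters, scaling and moderation, a replicate block, subsets and leaving out each library.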

Additional observations from a re-analysis of the deposited data

How the results depend on the processing

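App and Prnp were called at both ages under every alternative run. Over pseudocount, filter, scaling, trend, block and subset, the App row differed by log2 1.17 to 1.18 at 6 months and 1.16 at 9. The Prnp row differed by 1.52 to 1.54 at 6 months and 1.5 to 1.505 at 9. With rows summed per gene, the 9-month values were 1.151 to 1.16 for App and 1.495 to 1.505 for Prnp. Leaving out each library gave 1.15 to 1.18 (limma adjusted p from 3.36e-07 to 2.22e-06) for App and 1.51 to 1.53 for Prnp at 6 months. Without a filter, limma called 18 transcript rows for genotype at 6 months (10 with it), 22 at 9 months (14), 11 for age in wild type (3), 20 for age in APP/PS1 (12) and 11 for the difference between ages (4). With a pseudocount of 1, 6 rows were called for age in wild type and 2 for the difference between ages. Without a trend there were 6 for age in wild type and 8 genes at 9 months (13 with it). From the 6 libraries of the comparison alone, 34 rows were called for age in wild type, 24 for age in APP/PS1 and 21 genes at 9 months. Same-numbered libraries did not deviate together (18 pairs, r -0.062 to 0.062, own number highest in 11 of 36 comparisons). With the replicate block limma called 3 rows at 6 months, 11 at 9 months, 1 for age in wild type, 8 for age in APP/PS1 and 0 for the difference between ages (1825 at an unadjusted p under 0.05). Each library was left out in turn without the block. In the same order, the main counts of 10, 14, 3, 12 and 4 then moved to 8 to 26, 11 to 27, 3 to 19, 7 to 25 and 5 to 16. The gene counts moved to 4 to 17 and 7 to 19. The 6-month count was 26 without APP/PS1 library 1 and 24 without wild-type library 1 or 2 of that age, and the 9-month count 27 without APP/PS1 library 2 and 26 without wild-type library 3 of that age. The 6-month gene count was 12 without APP/PS1 library 1 and 17 without library 3, and the 9-month gene count 7 without wild-type library 1 and 8 without APP/PS1 library 3. Age in APP/PS1 gave 25 without APP/PS1 library 1 of 6 months, 21 without APP/PS1 library 2 and 7 without wild-type library 2 of 9 months. For age in wild type 11, and for the difference between ages 10, of the 12 libraries moved the count by over 1.5 times when left out. When single libraries were left out, signs turned only for differences near 0. For Aplp2 ENSMUST00000072634 at 6 months the values ran from -0.021 to 0.094, and for its difference between ages from -0.016 to 0.098. For ENSMUST00000079758 with age in APP/PS1 they ran from -0.032 to 0.027, for the Aplp2 gene at 9 months from -0.003 to 0.021 and for the App difference between ages from -0.029 to 0.011. The Aplp2 share differed by -0.63 percentage points at 6 months alone (exact permutation p = 0.8, with 0.1 the smallest that 3 against 3 allow), by 2.24 points at 9 months alone (exact permutation p = 0.3) and by 0.3 to 1.66 points with single libraries left out. The value at 6 months alone had the opposite sign to the 0.81 points over both ages. The cause of these shifts was not tested beyond the construction of each alternative. At 3 libraries per group small changes can go uncalled, and without counts the counting error behind an FPKM is unknown.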

Other observations

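Among rows of like level, App and Prnp varied little between libraries of a group. The mean coefficient of variation within groups was 1.71% for App, beside a median of 4.76% over 44 rows within 2-fold of its level. For Prnp it was 1.99%, beside 4.43% over 82 such rows. Aplp1 stood at 3.27% (4.57% over 105 rows), and the Aplp2 rows at 5.31% and 3.24% (4.69% over 1340 and 4.68% over 1305 rows). These values are descriptions of 3 libraries per group and were not tested.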
